A study of Homo sapiens with 2 samples.

Results

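The genes described here encode the protein skeleton that lines the red cell membrane. They were chosen by name with earlier results of these data known, so counts set beside all genes are a description and no independent evidence. The genes were SPTB, ANK1, SLC4A1, EPB41, EPB42, DMTN, ADD1, ADD2 and TMOD1, 9 of the 19775 genes that had a probe set of their own on the array. All 30 probe sets annotated with one of these symbols were taken, of 54675 in all, and 1 of the 30 also carried the symbol of another gene, TSTD2. The series asked how messenger RNA levels in K562 cells, a human erythroleukemia line, differed after a synthetic miR-34a mimic was brought into the cells. One culture had received 3 µg of the miR-34a mimic and the other 3 µg of a control mimic whose sequence matches no human gene, both by nucleofection, and RNA was taken at 24 hours. Each group held 1 array, so every value is a single measurement without a p-value between the groups, and precision is limited by the small number of arrays. K562 is an established leukemia line and not a normal red cell precursor, and in such a bulk sample a larger share of maturing cells and more RNA per cell cannot be told apart.

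The red cell membrane is held by a lattice of spectrin under the lipid bilayer. Ankyrin and the EPB42 protein tie this lattice to the anion exchanger band 3, and at the junctions of the lattice protein 4.1R, adducin, dematin and tropomodulin join spectrin to short actin filaments. Inherited defects of several of these proteins cause hereditary spherocytosis or elliptocytosis, and several of the genes are known to be switched on as red cell precursors mature. MicroRNAs such as miR-34a lower the messages that pair with their seed, bases 2 to 8. The mature arms of human miR-34a are shown because the mimic is the labelled difference between the cultures, with the seed in capitals. The labels do not say which arm the mimic carried.
hsa-miR-34a-5p: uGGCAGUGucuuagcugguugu
hsa-miR-34a-3p: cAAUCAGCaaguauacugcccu
These are RefSeq sequences of build GRCh38.p14, from chr1:9151735-9151756 and chr1:9151693-9151714 on the minus strand. The 3′ ends of the membrane skeleton messages, where seed matches usually lie, were not analysed here.

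Promoter windows, from 250 bases before to 50 bases after a RefSeq start site, were available for 6 of the 9 genes, with 10 windows in all. ANK1, SLC4A1 and DMTN had none. The windows were searched on both strands for the binding sequence of GATA factors (GATA after A or T and before A or G), for the KLF1-type box CCNCNCCC, and for the NF-E2 core TGAGTCA, with overlapping matches counted separately. A GATA sequence stood in 4 of the 10 windows, against 24.97% of the 35116 promoter windows in the table. CCNCNCCC stood in 9 of 10, against 56.18%, and TGAGTCA in 0 of 10, against 4.949%. These letter matches are a description and show no binding. One window each, the one with more matches where there were 2, is shown for SPTB, TMOD1, EPB42 and ADD2. SPTB and TMOD1 read higher with miR-34a, ADD2 read lower, and both readings of EPB42 lay within background. The windows run 5′ to 3′ in the direction of the gene with GATA sequences in capitals (GRCh38.p14).
SPTB promoter, chr14:64879858-64880157, minus strand: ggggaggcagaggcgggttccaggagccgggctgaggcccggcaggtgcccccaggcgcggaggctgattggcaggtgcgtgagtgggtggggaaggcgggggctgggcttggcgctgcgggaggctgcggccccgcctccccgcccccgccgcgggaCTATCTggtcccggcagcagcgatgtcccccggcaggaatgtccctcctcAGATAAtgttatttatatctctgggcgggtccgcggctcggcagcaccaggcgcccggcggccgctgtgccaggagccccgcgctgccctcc
EPB42 promoter, chr15:43220969-43221268, minus strand: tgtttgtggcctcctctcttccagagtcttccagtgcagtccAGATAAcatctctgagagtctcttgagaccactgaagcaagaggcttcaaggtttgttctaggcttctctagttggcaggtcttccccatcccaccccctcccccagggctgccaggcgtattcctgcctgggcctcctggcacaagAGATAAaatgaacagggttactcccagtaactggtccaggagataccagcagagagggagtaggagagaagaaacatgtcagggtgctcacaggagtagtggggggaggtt
TMOD1 promoter, chr9:97501416-97501715, plus strand: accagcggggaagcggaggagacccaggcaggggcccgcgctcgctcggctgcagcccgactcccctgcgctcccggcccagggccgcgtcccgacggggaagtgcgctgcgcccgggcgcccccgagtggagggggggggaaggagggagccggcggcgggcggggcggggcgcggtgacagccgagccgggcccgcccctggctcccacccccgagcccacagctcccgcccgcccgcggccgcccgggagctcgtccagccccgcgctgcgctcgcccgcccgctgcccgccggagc
ADD2 promoter, chr2:70767666-70767965, minus strand: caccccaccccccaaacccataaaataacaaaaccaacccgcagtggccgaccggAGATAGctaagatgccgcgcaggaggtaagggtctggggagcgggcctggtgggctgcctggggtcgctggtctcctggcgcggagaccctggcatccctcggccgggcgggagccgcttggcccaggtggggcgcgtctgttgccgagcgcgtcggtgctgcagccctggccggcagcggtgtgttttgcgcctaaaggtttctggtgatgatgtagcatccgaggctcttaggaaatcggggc
The SPTB and EPB42 windows each held 2 GATA sequences, a number reached by 6.08% of all windows, which were not chosen for their matches. Those of SPTB began 92 and 42 bases before the start site and those of EPB42 began 208 and 61 bases before it. The TMOD1 window held none and had 6 matches to CCNCNCCC, while the ADD2 window held 1 GATA sequence and 3 matches to CCNCNCCC. The windows not shown for these genes held fewer. The other SPTB window had 0 GATA sequences and 2 matches to CCNCNCCC, the other TMOD1 window 0 and 0, and the other ADD2 window 0 and 3, while EPB42 had 1 window. EPB41, which also read higher and is not shown, had 1 GATA sequence and 6 matches to CCNCNCCC in 1 window. Its other window had 0 and 4.

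The arrays were close in scale, with a median signal of 40.1 on the miR-34a array and 39.5 on the control array. The highest of 27 probe sets for bacterial transcripts that gave low signal, 75.4, was taken as the upper limit of background. The 3′ to 5′ signal ratio of GAPDH, which grows as RNA degrades, was 3.53 on the miR-34a array and 3.07 on the control array. For beta-actin the ratio was 4.54 on the miR-34a array and 4.30 on the control array. The part of these ratios in the results was not tested. A log2 ratio below is always miR-34a over control, computed on log2(signal + 14.9) and centred on the median of 12774 expressed genes, so that dim genes are understated. A probe set counted as expressed from a mean level of about 39.0, and each gene is represented by its brightest probe set of that kind. Probe sets of the same gene scattered about their mean with a pooled SD of 0.24, a measure of how probe sets disagree that holds no spread between cultures.

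The membrane skeleton genes did not move as a block. DMTN had the largest difference measured above background on both arrays, SLC4A1 was at least 1.65-fold higher from a control reading within background, TMOD1, SPTB and EPB41 were moderately higher with miR-34a, ANK1 and ADD1 were nearly level, and ADD2 was lower. Of the 9 genes, 8 passed the filter on level and EPB42 did not. With the brightest probe set, 7 of the 8 had a ratio above 0 and 1 below it, where 50.0% of all expressed genes lay on each side. Only 5 were higher and 1 lower by more than the pooled SD of 0.24, sizes that 18.4% and 17.5% of expressed genes reached. With probe sets averaged, 4 were higher and 1 lower by that size, since EPB41 fell just short of it. The shares of all genes for averaged probe sets were not computed. A log2 ratio at or past 2-fold upward was computed for 2 genes, DMTN and SLC4A1, against 0.595% of expressed genes, and downward for 0, against 0.548%. Of these 2, DMTN alone had both readings above background, and the bound for SLC4A1 is below 2-fold. At 1.5-fold, 3 genes were higher, against 3.28%, and 0 lower, against 3.01%. The median of the 8 genes was 0.40, that of all expressed genes being 0 by the centring.

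**Figure D1:**
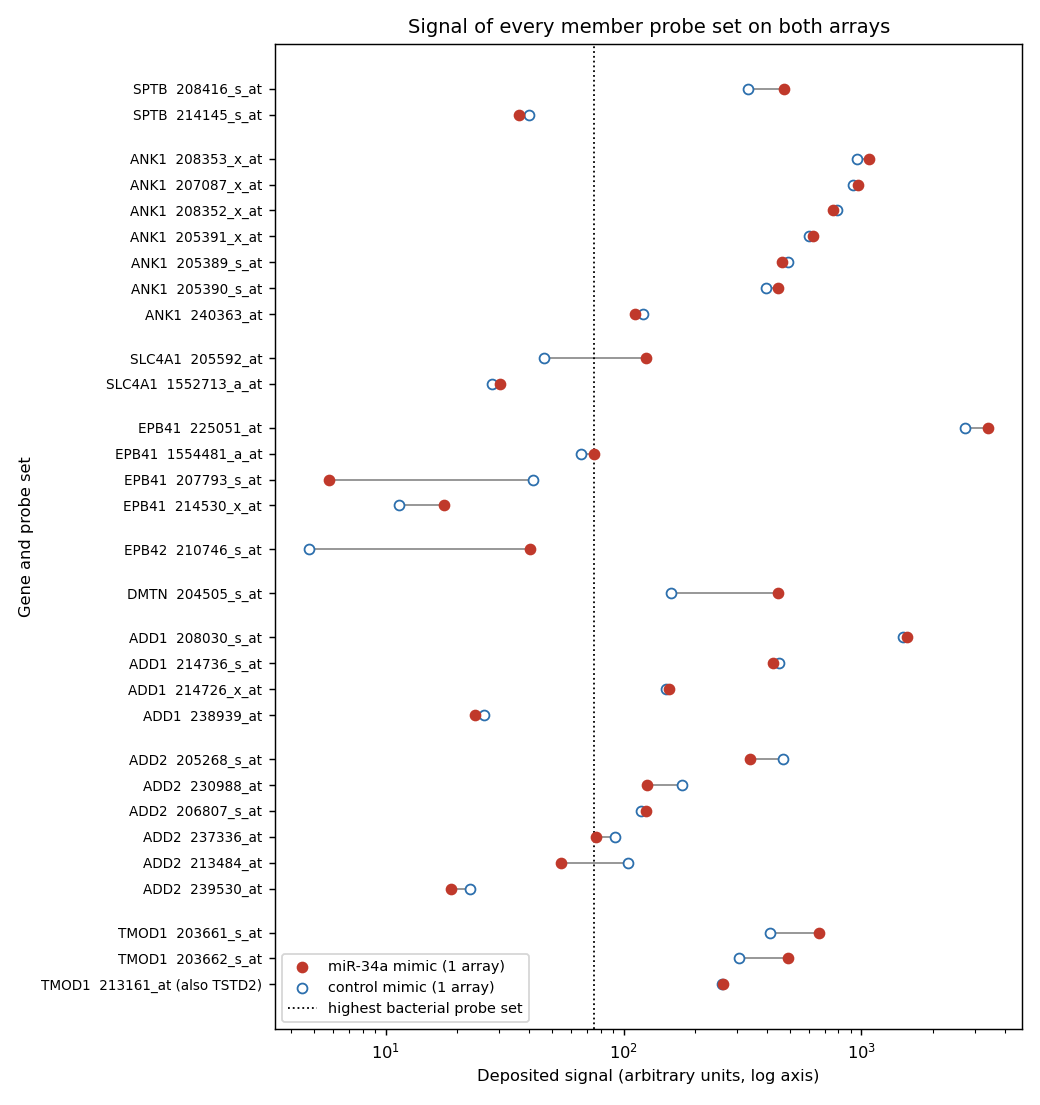
Deposited signal (arbitrary units, log axis) of each of the 30 probe sets on the miR-34a array (filled) and the control array (open), joined by a line, with the highest bacterial probe set at 75.4 dotted. DMTN, SLC4A1 and both own probe sets of TMOD1 show long lines to the right, the 7 probe sets of ANK1 almost none, most of ADD2 short lines to the left, and the long lines of EPB41 and EPB42 at the left edge lie within background.

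Counted by probe set, the picture was flatter. Of the 29 probe sets with no other symbol, 22 passed the filter, and 14 of these were higher and 8 lower, where 49.0% of all such probe sets were higher and 51.0% lower. Their median log2 ratio was 0.047. ANK1, ADD1 and ADD2 alone supplied 15 of the 22, so this count weights the genes that were level or lower. By log2 ratio 2 of the 22 probe sets, those of DMTN and SLC4A1, were at or past 2-fold upward, against 0.533% of all expressed probe sets, and 0 downward, against 0.565%. At 1.5-fold 4 were higher, against 3.16%, and 1 lower, against 3.23%. Of the 19 probe sets above background on both arrays, 12 were higher and 7 lower, and 1 was at least 2-fold higher. At 1.5-fold 3 of them were higher and 0 lower. The shares over all probe sets above background on both arrays were not computed, so these counts cannot be set against the whole array. Without the filter all 29 entered, 17 higher and 12 lower, where 49.3% and 50.7% of all probe sets with 1 symbol were. At least 2-fold higher were then 3, against 1.23%, and at least 2-fold lower 1, against 1.26%, the added ones being probe sets of EPB42 and EPB41 within background.

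Band 3 and its anchors came first in the order from bilayer to skeleton. SLC4A1 encodes band 3, the anion exchanger that is the main protein of the red cell membrane. Its brighter probe set, 205592_at, read 124.3 with miR-34a and 46.4 with the control, a log2 ratio of 1.17. The control reading lay within background, so the difference is given as at least 1.65-fold. The other probe set, 1552713_a_at, read 30.1 with miR-34a and 28.0 with the control. These readings lie under the background limit and carry no change. SLC4A1 therefore crossed from background to a dim signal on 1 probe set, without a second probe set above background to set beside it.

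EPB42 encodes a protein that binds band 3 and ankyrin on the inner face of the membrane. Its single probe set, 210746_s_at, read 40.5 with miR-34a and 4.74 with the control. Both readings lay within background and the probe set was under the filter, so it entered no count and no fold is given. Its message was not measurable above background in either culture.

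ANK1 encodes ankyrin-1, which couples spectrin to band 3, and it had the most probe sets, 7, all above background on both arrays. The brightest, 208353_x_at, read 1080 with miR-34a and 953.6 with the control, at a log2 ratio of 0.17. The next, 207087_x_at, read 966.9 with miR-34a and 923.5 with the control, and 208352_x_at read 760.9 with miR-34a and 790.1 with the control. Of the others, 205391_x_at read 623.2 with miR-34a and 604.4 with the control, 205389_s_at read 464.3 with miR-34a and 489.0 with the control, and 205390_s_at read 447.8 with miR-34a and 395.5 with the control. Over all 7 the log2 ratio ran between -0.12 and 0.17, with 4 above 0 and 3 below, a mean of 0.023 and an SD of 0.11. The ankyrin message thus stayed within the scatter between probe sets. Several of these probe sets are of the _x_at class, which can share sequence with other transcripts, and the 1 probe set of the plain class, 240363_at, read 111.5 with miR-34a and 121.1 with the control.

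The spectrin lattice is represented by SPTB, which encodes beta spectrin. This chain carries the binding sites for ankyrin and for the junctional complex. Its bright probe set, 208416_s_at, read 474.1 with miR-34a and 333.5 with the control, a log2 ratio of 0.48. The value stood higher than 94.5% of expressed genes but inside the central 95% of the 4608 expressed probe sets with a geometric mean signal between 300 and 1000, which ended at 0.60. The dim probe set, 214145_s_at, read 36.3 with miR-34a and 40.2 with the control, both within background, so the difference rests on 1 probe set.

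The junctional proteins differed most among themselves. DMTN encodes dematin, which bundles actin and links the junction to the membrane. Its single probe set, 204505_s_at, read 446.4 with miR-34a and 157.9 with the control, both above background. That is a ratio of 2.83 in signal and a log2 ratio of 1.41 after the pseudocount, above 99.9% of expressed genes. Among all 9037 expressed probe sets of similar level, with a geometric mean signal between 75.4 and 300, the central 95% of log2 ratios lay between -0.63 and 0.65. DMTN was the 1 member at least 2-fold apart with both readings above background, and no second probe set was there to set beside it.

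**Figure D2:**
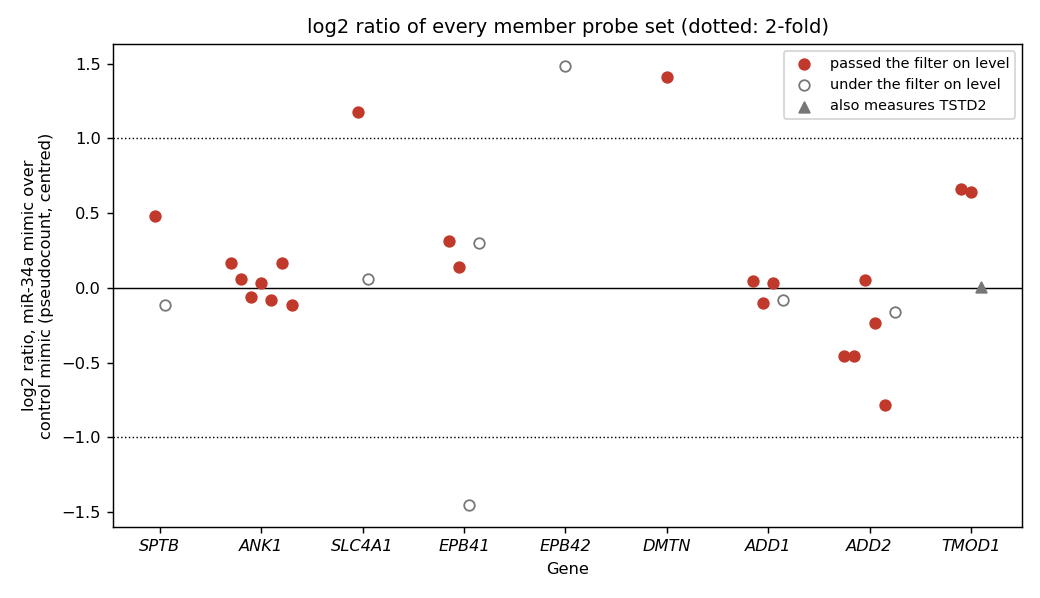
log2 ratio (miR-34a mimic over control mimic) of every probe set by gene, filled where it passed the filter, open where it did not, with a triangle for the probe set shared with TSTD2 and dotted lines at 2-fold. DMTN at 1.41 and SLC4A1 at 1.17, the second from a control reading within background, lie beyond 2-fold, the 7 values of ANK1 lie between -0.12 and 0.17, and the open points of EPB41 and EPB42 beyond 2-fold were within background on both arrays.

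TMOD1 encodes tropomodulin-1, which caps the slow-growing end of the short actin filaments. Its probe set 203661_s_at read 666.3 with miR-34a and 413.8 with the control, and 203662_s_at read 489.3 with miR-34a and 306.4 with the control. The log2 ratios were 0.66 and 0.64, with an SD of 0.013 over the 2 probe sets. TMOD1 was the member with the closest agreement between probe sets, and it stood above 97.7% of expressed genes. Both values lay past the upper end of 0.60 given above for probe sets of similar level. A further probe set, 213161_at, annotated to TSTD2 and TMOD1 together, read 260.7 with miR-34a and 258.1 with the control, a log2 ratio of 0.0043. It was left out of the gene value because it cannot be assigned to either gene.

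EPB41 encodes protein 4.1R, which strengthens the contact between spectrin and actin and binds glycophorin C. Its bright probe set, 225051_at, read 3423 with miR-34a and 2732 with the control, a log2 ratio of 0.31. Bright probe sets scattered less on these arrays: in the 2290 expressed probe sets with a geometric mean signal above 1000 the SD of the log2 ratio was 0.23, and the central 95% ended at 0.42. EPB41 lay inside that range. Its next probe set, 1554481_a_at, read 75.1 with miR-34a and 66.3 with the control, both just within background, at a log2 ratio of 0.14. The other 2 were under the filter and went opposite ways within background. Of these, 207793_s_at read 5.78 with miR-34a and 41.4 with the control, and 214530_x_at read 17.6 with miR-34a and 11.3 with the control.

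Adducin caps the fast-growing filament end as a complex of an alpha and a beta chain, and these chains differed. The alpha chain gene ADD1, which is used in most tissues, read 1558 with miR-34a and 1501 with the control on its brightest probe set, 208030_s_at, a log2 ratio of 0.045. Its other expressed probe sets gave -0.10 on 214736_s_at and 0.032 on 214726_x_at, and 238939_at read within background on both arrays. ADD1 was thus level within the scatter between probe sets. The beta chain gene ADD2, which is used mainly in blood and brain, read 339.3 with miR-34a and 467.4 with the control on 205268_s_at, a log2 ratio of -0.45. A second ADD2 probe set, 230988_at, read 125.5 with miR-34a and 176.6 with the control, at -0.46.

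The remaining probe sets of ADD2 did not all share that size. On 237336_at the readings were 76.5 with miR-34a and 92.0 with the control, a log2 ratio of -0.23. On 213484_at they were 54.5 with miR-34a and 104.0 with the control, at -0.78, with the miR-34a reading within background, so that it was at least 1.38-fold lower. On 206807_s_at they were 124.0 with miR-34a and 118.5 with the control, at 0.049. The sixth, 239530_at, was under the filter and within background on both arrays. ADD2 was therefore lower on 4 of 5 expressed probe sets, with a mean of -0.38 and an SD of 0.31, and its brightest value stood above 5.83% of expressed genes. That value lay inside the central 95% of probe sets with a geometric mean signal between 300 and 1000, which began at -0.69. It was the 1 skeleton gene on the low side by more than the pooled SD.

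**Figure D3:**
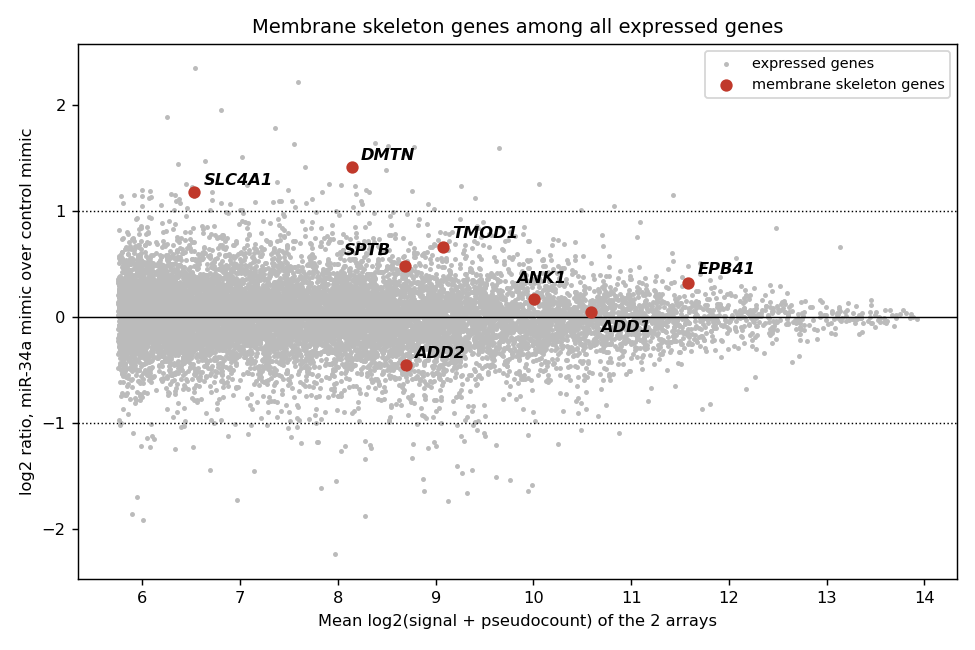
log2 ratio (miR-34a mimic over control mimic) against mean log2(signal + 14.9) for the 12774 expressed genes (grey), with the 8 membrane skeleton genes that passed the filter in red and dotted lines at 2-fold. DMTN and SLC4A1, the second with its control reading within background, lie above the 2-fold line, TMOD1 and SPTB in the upper part of the cloud, ADD2 in its lower part, and ANK1 and ADD1 in its middle.

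Genes whose products sit in or on the same membrane were read from a list of 20, of which 15 had a probe set of their own and all 15 were expressed. Of these 9 were higher and 6 lower, against 50.0% of all expressed genes each way, and the median was 0.24. A 2-fold size was passed by 1 gene upward, against 0.595% of expressed genes, and 0 downward, against 0.548%. The same shares apply to the counts of the lists that follow. The highest were RHD, a Rh blood group antigen of the band 3 complexes, at 1.61, and KCNN4, the calcium-activated potassium channel of red cells, at 0.57. RHD and RHCE are near-identical and the array may not separate them. The lowest were the calcium pump gene ATP2B4 at -0.92, with 144.0 on the miR-34a array and 284.8 on the control array, and the flotillin gene FLOT2 at -0.69. The calcium pump thus had a lower log2 ratio than any of the 8 skeleton genes counted. RHCE had shared probe sets alone.

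Actin and its partners, on which the junctions are built, stayed closer to 0. Of 13 expressed genes of a list of 17, 7 were higher and 6 lower, against 50.0% of all expressed genes each way. The median was 0.044. TPM1, a tropomyosin that lies along the short actin filaments, stood at 1.06, with 688.1 on the miR-34a array and 320.1 on the control array and an SD of 0.31 over 3 probe sets. It was the 1 gene of the list at least 2-fold higher, a count that was 0 with 4 times the pseudocount, with probe sets averaged and without the _s_at, _x_at and _a_at classes, and 0 genes were at least 2-fold lower. TPM4, a second tropomyosin, was next at 0.60. The lowest were LMOD1, a leiomodin of the tropomodulin family, at -0.24 and MYH9, a nonmuscle myosin heavy chain, at -0.12. Among the actin cappers of other cells, TMOD3 was at 0.11 and CAPZB at -0.013.

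Relatives of the skeleton genes that serve other tissues gave no common shift. Of 13 expressed paralogues of 21 listed, 6 were higher and 7 lower, against 50.0% of all expressed genes each way. In either direction 0 passed 2-fold, and the median was -0.037. With no filter the median was 0.11, so its sign is not settled. The third adducin gene, ADD3, read 1133 with miR-34a and 1035 with the control, at 0.12. The beta spectrin of other cells, SPTBN1, read 704.6 with miR-34a and 721.1 with the control, at -0.042, although its 7 probe sets ran between -0.56 and 0.46. The ankyrin gene ANK3 was lowest at -0.80, with 209.6 on the miR-34a array and 374.8 on the control array, and between -0.80 and -0.24 over its 3 probe sets. ANK2 at -0.36, TMOD2 at 0.29 and EPB41L4B at 0.25, the other extremes of the list, read within background on both arrays. The control readings of TMOD2 and EPB41L4B were also under the filter, so both genes passed through their miR-34a readings.

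**Figure D4:**
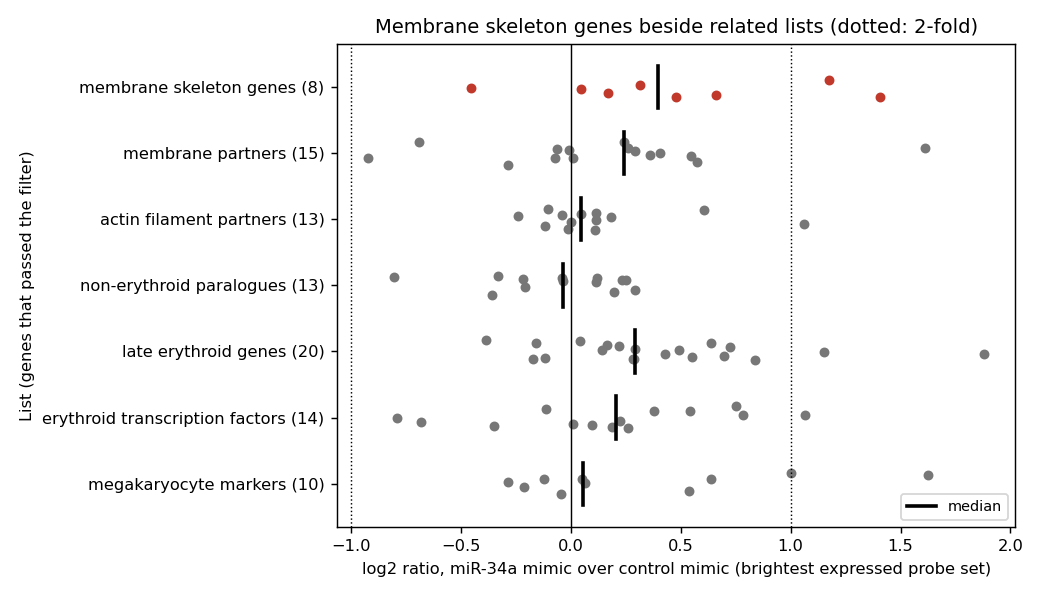
log2 ratio (miR-34a mimic over control mimic) of each expressed gene of 7 lists, with the number of genes in brackets, the median of each list as a bar and dotted lines at 2-fold. The membrane skeleton genes have a median of 0.40, the membrane partners 0.24, the actin filament partners 0.044 and the non-erythroid paralogues -0.037.

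Values of other genes of late red cell maturation are given beside those of the skeleton genes. Of 20 expressed genes of a list of 30, 16 were higher and 4 lower, against 50.0% of all expressed genes each way. The median was 0.29. HBA1, HBA2, HBG1 and HBG2 had shared probe sets alone and entered no count, and their values are given with the markers below. A log2 ratio past 2-fold was computed for 2 genes upward, of which 1 had both readings above background, and for 0 downward, and the upward count was 1 with 4 times the pseudocount, 1 with the filter at the 75th percentile and 0 without the _s_at, _x_at and _a_at classes. ALAS2, which starts heme synthesis in red cells, read 131.4 with miR-34a and 24.6 with the control. The control reading lay within background and under the filter, so the gene passed through its miR-34a reading, and its difference is given as at least 1.74-fold. CA1, also counted as higher, passed in the same way, with 70.5 on the miR-34a array and 37.5 on the control array, both within background. The selenium-binding protein gene SELENBP1, above background on both arrays, stood at 1.15. TRIM58, a ubiquitin ligase of late erythroblasts, was lowest at -0.39, and ALAD, an enzyme of heme synthesis, followed at -0.17 within background on both arrays. The 2 expressed ALAD probe sets ran between -0.17 and 0.31 with an SD of 0.34, so ALAD has no settled direction. Of 14 expressed transcription factors of blood cells, 10 were higher and 4 lower, against 50.0% of all expressed genes each way. Their median was 0.21. SPI1, which encodes the myeloid factor PU.1, was highest at 1.07 from a control reading within background, and GFI1B, a repressor in red cell and platelet precursors, followed at 0.78. With 4 times the pseudocount, or a filter set at the 75th percentile, 0 factors were at least 2-fold higher. MYB, a factor of blood progenitors, was lowest at -0.79 and FLI1, a megakaryocyte factor, at -0.68 with its miR-34a reading within background. The other of the 2 expressed FLI1 probe sets gave 0.025, so the SD was 0.50 and FLI1 has no settled direction. GATA1, the main red cell factor, was at 0.22 and KLF1, which activates many red cell genes, at 0.096.

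Markers of cell types were read as well, and their sums cover the brightest probe set of every marker with one of its own, expressed or not. Their counts higher and lower stand against 50.0% of all expressed genes on each side. All 9 erythroid markers with a probe set of their own were expressed and 8 were higher, but 8 of the 9 also stand in the late erythroid or transcription factor list, so this is no separate reading. Their brightest probe sets summed to 30330 with miR-34a and 25416 with the control, or to 22658 with miR-34a and 21158 with the control without the zeta globin gene HBZ. The alpha globin genes HBA1 and HBA2 and the gamma globin genes HBG1 and HBG2 had shared probe sets alone. They entered neither the count nor the sums. Their log2 ratios ran between 0.28 and 0.45 for alpha globin and between -0.044 and -0.0067 for gamma globin. ALAS2 and HBZ, at 0.84, were the highest and TFRC, the transferrin receptor, at -0.12 and KLF1 the lowest. Of 15 megakaryocyte markers 10 were expressed, 6 higher and 4 lower, and 6 of the 10 read within background on both arrays. The summed signal of the list was 1417 with miR-34a and 910.2 with the control, or 1102 with miR-34a and 819.0 with the control without TUBB1. TUBB1, a platelet tubulin, at 1.62 was the highest, but its 2 expressed probe sets ran between 0.44 and 1.62 with an SD of 0.84. ITGA2B, a platelet integrin, came next with 344.0 on the miR-34a array and 163.4 on the control array, just short of 2-fold by log2 ratio. Its other expressed probe set gave a log2 ratio of 1.56, so the SD was 0.40. GP9 at -0.29 and PF4 at -0.22, within background on both arrays, were the lowest. ITGB3, higher but within background on both arrays, passed the filter through its miR-34a reading, and GP9 passed it through its control reading. Of 13 myeloid markers 6 were expressed, 4 higher and 2 lower, with sums of 1297 with miR-34a and 1155 with the control, and AIF1 at 1.44 (at least 1.61-fold) and SPI1, both from control readings within background, were the highest and CSF3R at -0.22 and CSF1R at -0.14 the lowest. The control reading of AIF1 was also under the filter, so AIF1 passed through its miR-34a reading. Of 11 lymphoid markers 5 were expressed, 3 higher and 2 lower with a median of 0.040. The sums of the list were 1052 with miR-34a and 1587 with the control, but 700.2 with miR-34a and 633.4 with the control without CD3D. MS4A1 at 0.48, within background, and CD79B at 0.17 were the highest and CD3D at -1.41 and CD4 at -0.0084, within background, the lowest. Of the markers with a probe set of their own, 9 of 13 megakaryocyte, 7 of 13 myeloid and 7 of 10 lymphoid ones read within background on both arrays, MPO, CD14, CD3E, PPBP and GP5 among them. Above background on both arrays were TUBB1, ITGA2B, RAB27B and VWF of the megakaryocyte list, LYZ and CSF3R of the myeloid list, and CD3D, CD79A and CD79B of the lymphoid list. The part of these lineage differences in the values of the skeleton genes was not tested.

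**Figure D5:**
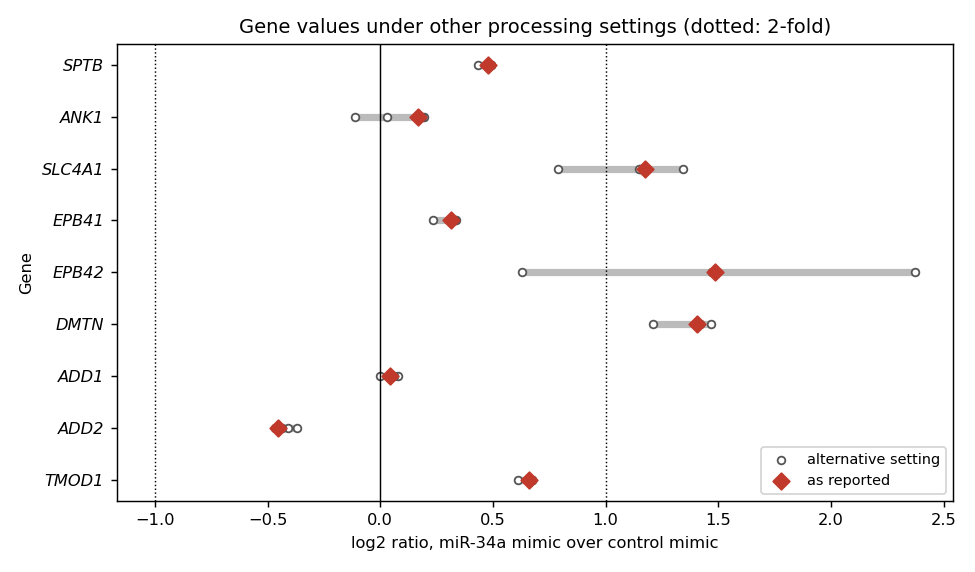
log2 ratio (miR-34a mimic over control mimic) of each of the 9 genes as reported (diamond) and under each other processing setting (circles), with dotted lines at 2-fold. DMTN lies between 1.21 and 1.47, SLC4A1 between 0.79 and 1.34 and ADD2 between -0.47 and -0.37, while ANK1 and ADD1 cross 0, and the points of EPB42 rest on readings within background and give no fold.

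The genes differed in how far these settings moved them. DMTN stayed past 2-fold in each of the 10 settings that gave it a value, the reported one included. Without the _s_at, _x_at and _a_at classes it had no value, because its single probe set is of the _s_at class. SLC4A1 fell short of 2-fold with 4 times the pseudocount, at 0.79. SPTB lay between 0.43 and 0.49, TMOD1 between 0.61 and 0.67 and EPB41 between 0.23 and 0.34. ANK1 ran between -0.11 and 0.19 and ADD1 between -0.0023 and 0.077, so neither has a settled direction.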

How the data were processed

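Gene expression was measured on Affymetrix arrays in K562 cells, 1 array per group. Per the labels' protocols, 15 µg of Trizol-extracted total RNA went into biotin-labelled cRNA. The authors deposited 1 intensity value per probe set and array on a linear scale, with a lowest value of 1. Which software, background correction and scaling made them is not given in the sources used here. Detection calls were not used. An unknown background correction bears most on dim probe sets such as those of EPB42 and SLC4A1. There were 0 columns of other samples.

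Ratios were taken on log2(intensity + 14.9), with the 25th percentile of all intensities as pseudocount. The miR-34a minus control difference was centred by 0.0090. Expressed meant a mean level of at least the median over 54613 probe sets, controls left out. By the platform annotation 41091 probe sets had 1 symbol, 1801 had several and 11721 had none. Symbols and gene IDs of all 9 genes matched the RefSeq gene table (GRCh38.p14). No gene position is given, since the probe sets come with no build.

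With 1 array per group no test was run. Alternatives changed the pseudocount, filter, centring, normalization, probe sets per gene and size threshold. A filter at the bacterial background was added after seeing the data. All probe sets of the 9 genes are named, and of each list the 2 highest, the 2 lowest and any gene past 2-fold; 1 further gene is not reported here. A few more list genes (ADD3, SPTBN1, TMOD3, CAPZB, GATA1, KLF1, CA1, HBA1, HBA2, HBG1, HBG2 and the markers named as within or above background) were named after their values were seen. The genes and lists were chosen with earlier results of these data known. The calculation was tested on simulated data. Python 3.11.15, NumPy 2.4.6, pandas 2.3.3, statsmodels 0.14.6 and matplotlib 3.10.9 were used.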

Additional observations from a re-analysis of the deposited data

How the results depend on the processing

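None of the skeleton gene values past 2-fold changed direction under any setting tried. Each of them rested on 1 probe set, and the settings only rescale or filter the same readings. They could therefore hardly reverse such a value, and they hold nothing on the spread between cultures. Of 82 gene values recomputed under other settings, 78 moved by no more than the pooled probe set SD of 0.24. The other 4 were EPB42, whose readings within background give no fold, at 2.37 with the pseudocount divided by 4 and 0.63 with 4 times it, SLC4A1 at 0.79 with 4 times it, and ANK1 at -0.11 on its 1 probe set outside the _s_at, _x_at and _a_at classes. Genes at least 2-fold higher numbered 1 with 4 times the pseudocount, 1 with the filter at the 75th percentile and 1 without those classes, in place of 2, and so did probe sets. The gene left without those classes was SLC4A1 at 1.18, from a control reading within background, and DMTN had no value there. Without those classes 4 genes and 6 probe sets remained, with 2 genes higher and 2 lower, and 2 probe sets higher and 4 lower. With probe sets averaged 2 genes were lower. Under a filter at the 75th percentile 5 probe sets were lower. With no filter 1 probe set, of EPB41 within background, was at least 2-fold lower. At 1.5-fold, 4 probe sets were higher and 1 lower. The megakaryocyte median was 1.01 with the filter at the 75th percentile, 0.30 without those classes and 0.82 above the bacterial background, and the lymphoid median was -0.67 with the filter at the 75th percentile. Fewer genes remained in each of these cases. Of 90 recomputed list medians 5 changed sign, the last of those above among them. The paralogue median was 0.11 with no filter and 0.0088 without those classes. The myeloid median was -0.045 with the filter at the 75th percentile, and the lymphoid median -0.0036 without those classes. Of 189 recomputed list counts, 153 stayed within 1.5 times. No paired analysis was possible because each group held 1 array, and for the same reason none could be left out. Signal over background limits SLC4A1 and EPB42 most.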
